A study of Mus musculus with 9 samples.

Results

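The comparison set primary mouse cardiac fibroblasts that received an adenovirus carrying junctophilin-2 (Ad-JP2, 3 libraries) against the same kind of cells given an adenovirus carrying a hairpin against junctophilin-2 (Ad-shJP2, 3 libraries). Its members were all genes with a TPM (the length-scaled share of a gene among a library's transcripts) of at least 1 in 3 or more of these 6 libraries, 13898 of the 56953 genes in the deposited table. The series held 9 libraries in all, and the other 3 came from cells given a virus for green fluorescent protein (Ad-GFP). All cells were labelled wildtype C57BL/6N, from hearts of adult male mice. Hearts were digested with enzymes, cardiomyocytes were settled out, and the cells that attached to the dish were grown before infection. RNA was taken 72 h after virus was added, and stranded libraries were made from polyA RNA. The labels name no virus with a scrambled hairpin among these groups, so the overexpression and the hairpin differ in direction and in cargo. They do not say whether replicates were separate mice or separate dishes, so the p-values measure the spread between these libraries, which may be technical.

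Junctophilins are anchored in the endoplasmic or sarcoplasmic reticulum and bind the plasma membrane with repeated membrane-binding motifs, which holds the membranes close together. In cardiomyocytes junctophilin-2 keeps the calcium channels of the surface next to the release channels of the store. In fibroblasts a related contact is where STIM proteins, which sense an empty store, meet ORAI channels and let calcium in, a process called store-operated calcium entry. Calcium that enters can switch on calcineurin, a phosphatase that sends NFAT transcription factors into the nucleus. After injury, fibroblasts make collagen, stiffen their actin skeleton and release signals for vessels and leukocytes.

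Approximate depth, read from steps in low values, was 37000000 to 41200000 reads in Ad-JP2 and 21300000 to 33100000 in Ad-shJP2, so the hairpin libraries were the shallower ones. The steps were imperfect, with 44.12% to 61.02% of low values within 0.1 of a whole read. Between 13772 and 13931 genes reached 1 TPM in an Ad-JP2 library and between 13076 and 13160 in an Ad-shJP2 library. The 100 most abundant genes took 29.84% to 30.42% of all TPM in Ad-JP2 and 31.5% to 31.69% in Ad-shJP2. Libraries correlated at 0.9915 to 0.9942 within Ad-JP2, at 0.99 to 0.9916 within Ad-shJP2 and at 0.9374 to 0.9441 between the groups on the log2(TPM + 1) scale. The median coefficient of variation of a gene was 6.59% in Ad-JP2 and 7.61% in Ad-shJP2. The part that the depth gap plays in the counts below was not tested.

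Jph2, the targeted gene, was at 737, 691 and 637 TPM in the Ad-JP2 libraries and at 116.5, 123 and 119 TPM in the Ad-shJP2 libraries. The Ad-GFP libraries stood at 132, 127.5 and 128 TPM. Every Ad-JP2 library was far above every other library, whereas the libraries labelled Ad-shJP2 lay only slightly below those of the GFP virus. Jph2 was thus 5.76-fold higher in Ad-JP2 than in Ad-shJP2 by group mean (log2 difference 2.51, SE 0.05, limma adjusted p = 7.0e-10), and an exact two-sided permutation test gave p = 0.1, the smallest value that 3 against 3 libraries allow. Nearly all of that distance lay between Ad-JP2 and Ad-GFP. Differences below therefore set a library group with raised Jph2 message against one whose Jph2 message was close to that of the GFP virus, and the Ad-GFP values are given where they show on which side a gene moved. Of the other junctophilins, Jph1, Jph3 and Jph4 did not reach the level for testing, with Jph1 at 0.541 to 0.737 TPM in Ad-JP2 and 0.358 to 0.488 TPM in Ad-shJP2.

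Most genes tested differed between the groups. Differences are given as log2(TPM + 1) in Ad-JP2 minus Ad-shJP2, a scale that understates the change of genes near 1 TPM, and a gene was called when its limma adjusted p was under 0.05. Of 13898 genes, 5681 (40.9%) were called higher in Ad-JP2 and 3421 (24.6%) lower. Fold sizes in the counts were taken on the log2(TPM + 1) scale, and they were lopsided. Of all genes tested, 1976 (14.2%) were called and at least 2-fold higher, but only 214 (1.54%) were called and at least 2-fold lower. At 4-fold or more the numbers were 377 higher and 21 lower, and at 8-fold or more 25 and 4. The middle gene was 0.10 higher, the 5th percentile of all differences was -0.68 and the 95th was 1.70. For 5858 genes (42.1%) every Ad-JP2 library was above every Ad-shJP2 library, and for 3592 genes (25.8%) every one was below.

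**Figure D1:**
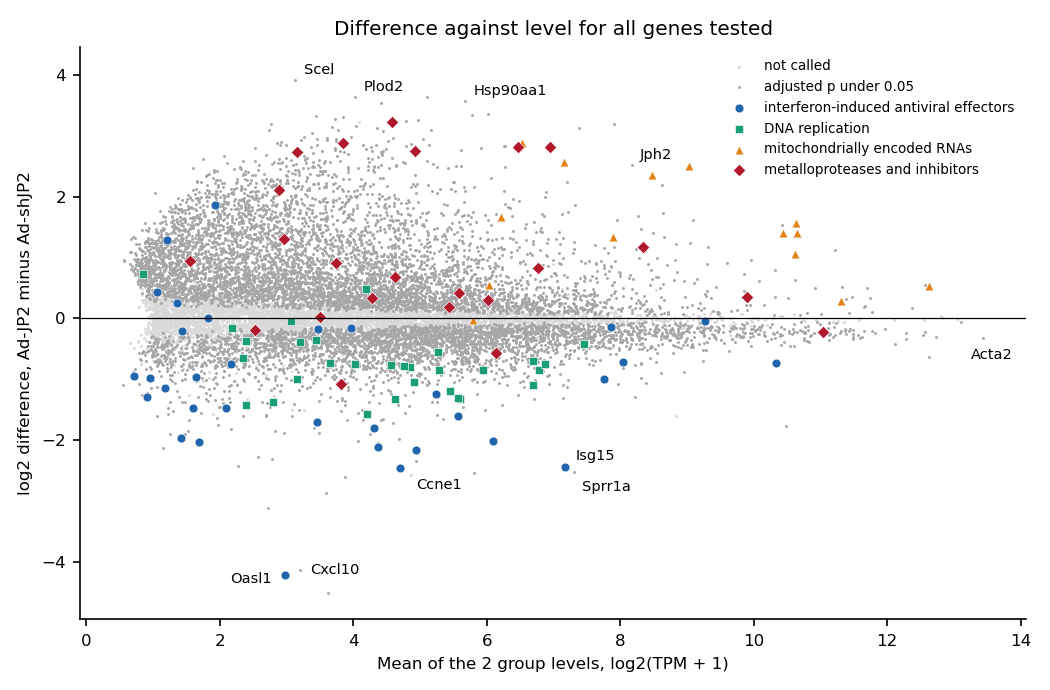
Log2 difference (Ad-JP2 minus Ad-shJP2, vertical axis) against the mean of the 2 group levels in log2(TPM + 1) (horizontal axis) for all 13898 genes; grey points are genes, dark grey those with adjusted p under 0.05, and coloured marks are members of 4 gene lists. Points at 1 or higher outnumber those at -1 or lower, mitochondrially encoded RNAs sit among the abundant genes that were higher, and DNA replication and interferon-induced antiviral genes lie mostly below 0.

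Which side held more genes depended on how libraries were scaled. Higher genes made up 62.4% of the calls as deposited in TPM, 50.6% with median-of-ratios scaling (4729 higher, 4612 lower) and 41.9% with quantile normalization (4020 higher, 5571 lower). These scalings moved the middle of all genes by -0.12 and -0.21, so small differences are best read against the middle gene. Large rises outnumbered large falls under each of them, with 1745 against 302 genes and 1301 against 555 genes at 2-fold or more.

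Base composition moved with the difference. In the 20% of genes with the lowest GC content (30.96% to 44.49%) the median difference was 0.72 and 37.7% of genes were called at least 2-fold higher. In the 20% with the highest GC content (55.47% to 76.33%) the median was -0.08 and 1.09% were at least 2-fold higher. Long transcripts were shifted upward as well, with a median of 0.59 in the longest 20% and -0.09 in the shortest. Across 13741 genes with a known sequence, the difference correlated with GC content at r = -0.43 (Spearman's rho -0.42), and across all 13898 genes with log2 length at r = 0.33 (rho 0.37), as a description across genes that share the same libraries. Each library's values were therefore also corrected for GC content and length by a smooth fit across genes. After that 6774 genes (49.3%) were higher and 2501 (18.2%) lower. Rises of 2-fold or more then numbered 1229 (8.94%), falls of that size 227 (1.65%), and the middle gene stood at 0.23. Corrected counts, printed below for many of the gene groups, are to be read against these corrected shares, 49.3% higher and 18.2% lower. Counts of called members are to be read against the shares of all genes, which were 40.9% higher, 24.6% lower and, for changes of 2-fold or more, 14.2% up and 1.54% down before correction. Whether base composition itself, or RNA quality, contributed to the differences was not tested.

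**Figure D2:**
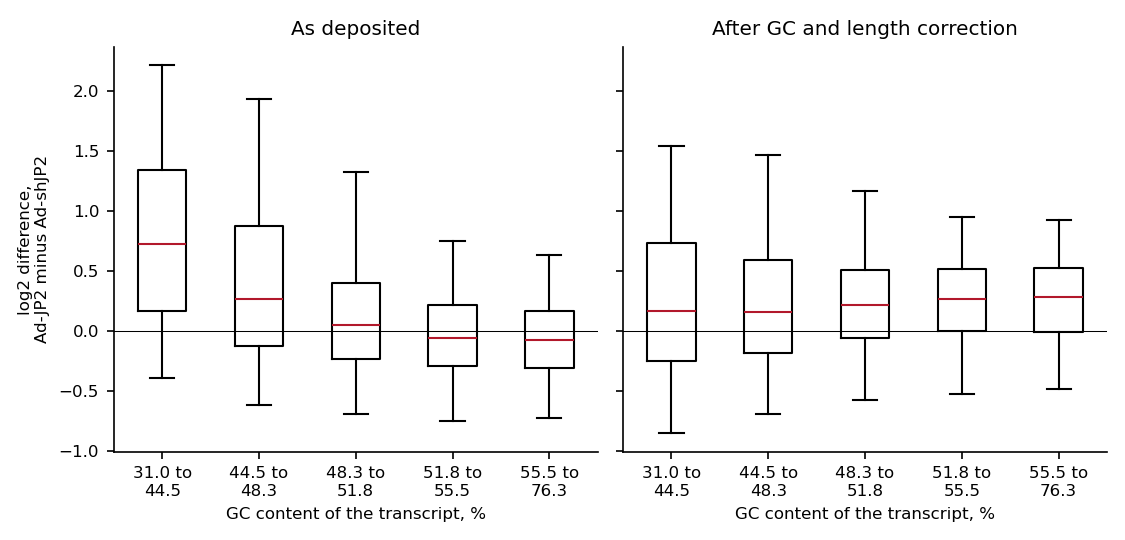
Log2 difference (vertical axis) of the genes in 5 equal bins of GC content (horizontal axis), with boxes for the quartiles, a line for the median and whiskers from the 5th to the 95th percentile, as deposited and after correction. Uncorrected medians go down from 0.72 to -0.08 over the bins, and corrected medians lie between 0.15 and 0.28.

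The largest rises and falls named here were ranked among called genes with a mean TPM of at least 5 and no overlap. Gm and Rik gene models and pseudogenes were left out. Outside this filter 1 gene was called at least 16-fold higher by the log2(TPM + 1) difference. Within it, the largest rise was that of Scel, which encodes sciellin, a protein of cornified envelopes. Its level was 33.1, 32.3 and 33.1 TPM in Ad-JP2 and 1.3, 1.12 and 1.36 TPM in Ad-shJP2 (log2 difference 3.91, SE 0.09, limma adjusted p = 2.1e-09). No Ad-shJP2 library came near an Ad-JP2 library, and the Ad-GFP libraries lay between them at 8.57, 11.3 and 10.3 TPM. Plod2, which hydroxylates lysines of collagen telopeptides for crosslinking, was 54.9, 56.5 and 57.6 TPM in Ad-JP2 and 4.22, 3.44 and 3.29 TPM in Ad-shJP2 (3.63). The stress-inducible cytosolic chaperone Hsp90aa1 was 178.5, 166 and 176 TPM in Ad-JP2 and 11.9, 13.4 and 16.4 TPM in Ad-shJP2 (3.56), and its relative of the endoplasmic reticulum, Hsp90b1, was 165, 172 and 186 TPM in Ad-JP2 and 17.1, 16.2 and 15.5 TPM in Ad-shJP2 (3.34). Both chaperones were several times above every Ad-GFP library too, where Hsp90aa1 stood at 38.2, 36.1 and 34.5 TPM. The other named rises were Arfip1, a binding partner of ARF GTPases (3.53), the thrombin receptor F2r (3.35), the Y-linked translation factor Eif2s3y (3.33) and the interleukin-1 co-receptor Il1rap (3.31). The mitochondrial dehydrogenase Acadsb (3.28), the matricellular protein gene Ccn4 (3.25), the kinase anchor Pakap (3.25) and the aggrecanase Adamts5 (3.22) completed the 12. All 12 kept their call after the GC and length correction, with differences of 2.15 (Adamts5) to 3.67 (Scel).

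Among the 12 largest falls within the same filter, 7 were genes that interferon or virus sensing is known to induce. Oasl1, an inhibitor of Irf7 translation that interferon switches on, was at 0.651, 0.681 and 1.16 TPM in Ad-JP2 and 31.8, 33.5 and 32.2 TPM in Ad-shJP2 (log2 difference -4.20, SE 0.11, limma adjusted p = 3.4e-09). Cxcl10, a chemokine that draws T cells, was at 0.79, 1.46 and 1.33 TPM in Ad-JP2 and 38.4, 37 and 36.1 TPM in Ad-shJP2 (-4.13). For both genes the Ad-GFP libraries were as low as Ad-JP2, with Oasl1 at 0.899, 0.714 and 0.802 TPM and Cxcl10 at 0.809, 0.928 and 0.635 TPM. Ccl5 (-2.87), Usp18 (-2.45), Isg15 (-2.43), Irf7 (-2.34) and Rtp4 (-2.15) were the other genes of that kind. Ccne1, the cyclin that drives entry into S phase, was at 20.4, 22.7 and 24.2 TPM in Ad-JP2 and 137, 131 and 134 TPM in Ad-shJP2 (-2.53). Its Ad-JP2 and Ad-GFP libraries were alike, and all 3 Ad-shJP2 libraries were far above them. Sprr1a, a small proline-rich protein induced in stressed cells (-2.53), and its relative Sprr2h (-2.42) were lower too. The remaining falls had unstable values: Rn7s1, a signal recognition particle RNA that is not polyadenylated, was at 5.08, 0 and 0 TPM in Ad-JP2 and 29.9, 119 and 18.3 TPM in Ad-shJP2 (-4.51, adjusted p = 0.0082), and the unnamed gene ENSMUSG00000121578 was at 14.3, 5.21 and 0 TPM in Ad-JP2 and 17.7, 33.4 and 32.4 TPM in Ad-shJP2 (-2.61, adjusted p = 0.024). The call of the latter was lost without Ad-shJP2 replicate 2 (-2.45) or 3 (-2.48), and without Ad-JP2 replicate 3 its difference was -1.51.

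**Figure D3:**
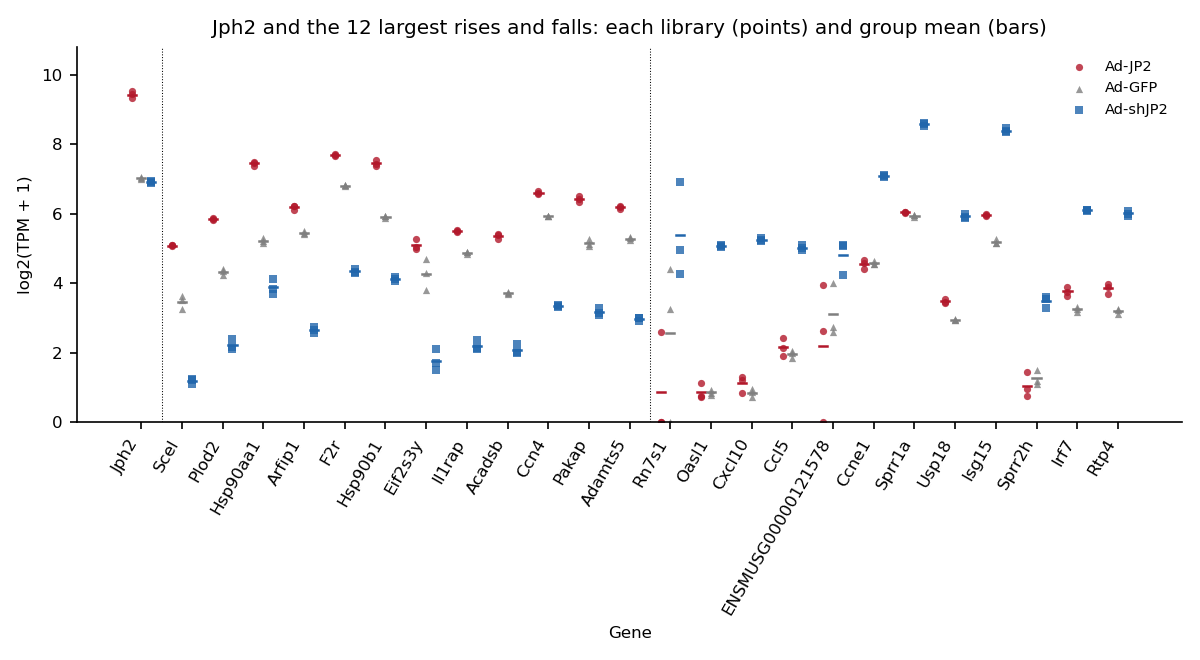
Level in log2(TPM + 1) (vertical axis) for Jph2 and the genes with the 12 largest rises and 12 largest falls within the naming filter. Each point is 1 library, coloured by group, and bars are group means. Ad-GFP points lie between the other groups for the 12 rises and beside Ad-JP2 for most of the falls, while Rn7s1 and ENSMUSG00000121578 are scattered within groups.

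The tethers that hold the endoplasmic reticulum to the plasma membrane went both ways. Of 12 tested, 6 were higher and 2 lower, against 40.9% and 24.6% of all genes, with a median of 0.12. Besides Jph2, the extended synaptotagmin Esyt2, a calcium-regulated lipid transfer tether, was at 39.3, 37 and 38.3 TPM in Ad-JP2 and 8.62, 8.11 and 8.93 TPM in Ad-shJP2 (log2 difference 2.04, SE 0.05, limma adjusted p = 2.1e-09). All 3 Ad-JP2 libraries were above all Ad-shJP2 libraries, with Ad-GFP between them at 15.7, 15.7 and 15.6 TPM. The lipid exchanger Osbpl8 was higher (1.33, and 0.38 after correction), and C2cd2l, a lipid transfer tether, was lower (-0.44) but not after correction (-0.25).

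Both sensor genes of store-operated calcium entry were higher. Of 13 tested, 5 were higher, 2 lower and 6 not called, with a median of 0.12 against 0.10 for all genes. The sensor Stim2, which responds to small losses of store calcium, was at 27.5, 24 and 21.3 TPM in Ad-JP2 and 3.3, 4.21 and 4.28 TPM in Ad-shJP2 (log2 difference 2.36, SE 0.11, limma adjusted p = 1.5e-07). Its Ad-GFP libraries stood between these groups, at 13.3, 13.8 and 15.8 TPM. Stim1, the main sensor, was at 45.2, 46.6 and 47.5 TPM in Ad-JP2 and 29.1, 31.4 and 29.7 TPM in Ad-shJP2 (0.61, SE 0.05, limma adjusted p = 2.5e-06). Here Ad-GFP was level with Ad-JP2, at 45.6, 44.4 and 41.7 TPM, and the hairpin libraries alone were low. The pore genes were nearly level: Orai1 was at 30.6, 31.3 and 29.6 TPM in Ad-JP2 and 28.3, 29.6 and 28.5 TPM in Ad-shJP2 (0.08, adjusted p = 0.12). Orai3 differed by 0.12 (adjusted p = 0.15) and Orai2 was lower (-0.22, SE 0.05, limma adjusted p = 0.004), though not after GC and length correction (-0.11). The channel subunit Trpc1 (1.64) and Asph, whose locus also encodes the store proteins junctin and junctate (1.71), were higher. The most abundant member, Saraf, which turns store-operated entry off, was at 154, 154 and 150.5 TPM in Ad-JP2 and 141, 141 and 141 TPM in Ad-shJP2 (0.12, and -0.01 with median-of-ratios scaling). After GC and length correction 12 of the 13 were called higher and none lower, with a median of 0.56 against 0.23 for all genes, and Orai1 was then at 0.56 and Orai3 at 0.50. With median-of-ratios scaling the list had 4 higher and 4 lower, so its balance changed with the scaling, while Stim2 was at 2.24 and Stim1 at 0.48.

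Among 9 TRP and Piezo channels 4 were higher and 3 lower, near the 40.9% and 24.6% of all genes. Pkd2, a cation channel of cilia and the endoplasmic reticulum, was at 38.9, 40.8 and 38 TPM in Ad-JP2 and 7.3, 8.12 and 8.49 TPM in Ad-shJP2 (2.17). The stretch-activated channels moved apart, with Piezo2 at 9.36, 8.6 and 6.98 TPM in Ad-JP2 and 2.77, 3.22 and 2.11 TPM in Ad-shJP2 (1.33) and the more abundant Piezo1 at 112.5, 111.5 and 103 TPM in Ad-JP2 and 134, 129.8 and 129.8 TPM in Ad-shJP2 (-0.27). Neither Piezo gene had overlapping groups. Trpm4 was lower (-0.67), and the rise of Trpm7 (1.01) was lost after correction (-0.12).

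Pumps, exchangers and release channels were higher for 12 of 19 and lower for 3, with 5 at least 2-fold higher and a median of 0.48. Canx, a calcium-binding chaperone of the endoplasmic reticulum, was at 229, 234 and 231 TPM in Ad-JP2 and 68, 50.3 and 55.8 TPM in Ad-shJP2 (log2 difference 1.99, SE 0.09, limma adjusted p = 7.8e-08). The plasma membrane pump Atp2b1 was at 5.06, 5.41 and 5.77 TPM in Ad-JP2 and 0.653, 0.728 and 0.916 TPM in Ad-shJP2 (1.86), and the Golgi pump Atp2c1 was higher (1.62). All 3 genes had Ad-GFP between the groups. Slc8b1, which lets sodium take calcium out of mitochondria, was lower (-0.53), as was Itpr3, a store release channel (-0.30). Calr, the most abundant member, was at 990.5, 1029 and 1058 TPM in Ad-JP2 and 897, 852.5 and 883 TPM in Ad-shJP2 (0.22, and 0.09 with median-of-ratios scaling, adjusted p = 0.063). The corrected count was 11 higher and 4 lower, with rises of 2-fold or more in 2.

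Calcineurin and NFAT genes were higher for 14 of 19 and lower for 1, with 6 at least 2-fold higher and a median of 0.57. Ppp3cb, a catalytic subunit of calcineurin, was at 28.6, 28.1 and 29.2 TPM in Ad-JP2 and 5.96, 5.92 and 6.11 TPM in Ad-shJP2 (log2 difference 2.08, SE 0.05, limma adjusted p = 2.7e-09). Of the other catalytic subunits, Ppp3ca was at 8, 7.05 and 7.34 TPM in Ad-JP2 and 2.41, 2.35 and 1.69 TPM in Ad-shJP2 (1.43), and the more abundant Ppp3cc was at 9.63, 9.34 and 9.65 TPM in Ad-JP2 and 9.15, 7.13 and 7.85 TPM in Ad-shJP2 and not called (0.23, adjusted p = 0.055; 0.31 and called without Ad-shJP2 replicate 1). Ad-GFP lay between the groups for Ppp3cb and Ppp3ca, nearer the hairpin virus for Ppp3ca at 2.98, 3.71 and 3.43 TPM. Of the transcription factors, Nfatc3 (1.63) and the osmotic stress factor Nfat5 (1.71) were higher. The calcineurin regulator Rcan3 was the member called lower (-0.24). After correction 13 were higher and 4 lower, and Ppp3cb at 1.32 was the member that remained at least 2-fold higher.

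Septins, GTPases that build filaments under the plasma membrane and organise STIM and ORAI contacts, were higher for 7 of 10 and lower for none, with 3 not called. Septin7, the subunit common to most septin filaments, was at 47.6, 47.3 and 53 TPM in Ad-JP2 and 6.96, 6.36 and 6.04 TPM in Ad-shJP2 (2.75, SE 0.08, limma adjusted p = 4.7e-09). Its Ad-GFP libraries, at 13.6, 16 and 14.6 TPM, were closer to the hairpin virus than to Ad-JP2. Septin2 (1.44) and Septin11 (1.07) were higher too, whereas the most abundant, Septin8, was at -0.00 (adjusted p = 0.97) and at -0.13 with median-of-ratios scaling, where it was called lower. Of 10 caveolae genes 5 were higher and 1 lower (9 and 0 after correction). The coat protein gene Cavin2 was at 106, 103 and 103 TPM in Ad-JP2 and 11.2, 11.3 and 11.4 TPM in Ad-shJP2 (3.09, SE 0.03, limma adjusted p = 4.6e-11), a 9.2-fold difference, and Cav2 was higher (1.58). The most abundant coat gene, Cavin1, differed by 0.25 (adjusted p = 2.0e-05).

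Collagen chains were higher for 14 of 20 and lower for 1, against 40.9% and 24.6% of all genes, with a median of 0.46 against 0.10. At least 2-fold higher were 4 of the 20, near the 14.2% of all genes. Col8a1, a short-chain collagen of vessel walls and injured tissue, was at 234, 232 and 235 TPM in Ad-JP2 and 33.9, 33.1 and 33.4 TPM in Ad-shJP2 (log2 difference 2.77, SE 0.03, limma adjusted p = 4.5e-11). Its Ad-GFP libraries lay between the groups, at 87.9, 90.3 and 89.8 TPM. The chains of the main fibrils moved less: Col1a1 was at 1713, 1703 and 1624 TPM in Ad-JP2 and 970.3, 976 and 946.5 TPM in Ad-shJP2 (0.80, SE 0.03, limma adjusted p = 1.1e-08) and Col1a2 at 1409.8, 1397 and 1353 TPM in Ad-JP2 and 705, 728 and 699.7 TPM in Ad-shJP2 (0.96). Col3a1 was at 702, 715 and 712.5 TPM in Ad-JP2 and 555, 533.5 and 529 TPM in Ad-shJP2 (0.40). Groups did not overlap for these 3 fibril genes, and Ad-GFP stood near Ad-JP2, with Col1a1 at 1581, 1591 and 1539 TPM. Col4a5 of basement membranes (2.10) and Col11a1, which sets fibril width (1.99), were higher, and Col7a1, which anchors basement membranes, was lower (-0.95, adjusted p = 0.029). The call of Col7a1 was lost without any 1 of the 3 Ad-JP2 libraries or of Ad-shJP2 replicates 1 and 2 (limma adjusted p = 0.05 to 0.088). After correction 11 chains were higher and 4 lower, against 49.3% and 18.2% of all genes, with a median of 0.28 against 0.23. Col1a1 was then at 0.56, Col1a2 at 0.80 and Col3a1 at 0.21.

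Enzymes that hydroxylate and crosslink collagen were higher for 13 of 21 and lower for 3, but only 2 were at least 2-fold higher. Lox, the oxidase that starts lysine crosslinks, was at 746, 744 and 675 TPM in Ad-JP2 and 76.4, 79.5 and 79 TPM in Ad-shJP2 (log2 difference 3.19, SE 0.04, limma adjusted p = 8.0e-11). It was 9.22-fold higher by group mean, and Ad-GFP lay between the groups at 341, 331.5 and 336 TPM. Plod2, described above, was the other. Loxl2 (0.67) was next, and Tgm2, a protein crosslinker, was lower (-0.46). Serpinh1, the collagen chaperone HSP47 and the most abundant member, was at 1707, 1726 and 1643 TPM in Ad-JP2 and 1612, 1626 and 1615 TPM in Ad-shJP2 (0.06, limma adjusted p = 0.021), a call lost without Ad-JP2 replicate 1 or 2 or Ad-shJP2 replicate 1 or 3 (adjusted p = 0.053 to 0.083). The balance of the list depended on the processing, with 8 higher and 7 lower under median-of-ratios scaling, where Serpinh1 was at -0.07. It was 17 and 1 after GC and length correction and 11 and 5 with quantile normalization.

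Among other matrix groups the share of higher members was above the 40.9% of all genes, with no test of that excess. Elastic fibre genes were higher for 11 of 15 and lower for none, led by the microfibril gene Fbn1 (1.16), and the most abundant, Fbln2, stood at 0.32. Proteoglycan genes were higher for 13 of 16 and lower for 3, with 7 at least 2-fold higher. Dse, which makes dermatan sulfate, was at 54.4, 44.8 and 44.4 TPM in Ad-JP2 and 4.95, 4.4 and 4.12 TPM in Ad-shJP2 (3.15). The groups were far apart, with Ad-GFP at 31.7, 34.2 and 31.9 TPM. Gpc6 (1.75) and the hyaluronan synthase Has2 (1.45) were higher, and Gpc1 (-0.85), Sdc1 (-0.78) and Sdc3 (-0.32), which carry heparan sulfate at the cell surface, were lower. Bgn, the most abundant, was at 3904, 3906 and 3725 TPM in Ad-JP2 and 3009.9, 3055 and 3030.5 TPM in Ad-shJP2 (0.34).

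Matricellular genes, whose products sit in the matrix and signal to cells, were higher for 12 of 16 and lower for 2. Ccn4, a WNT target, was at 99.4, 94.9 and 93.7 TPM in Ad-JP2 and 9.18, 9.42 and 8.94 TPM in Ad-shJP2 (log2 difference 3.25, SE 0.04, limma adjusted p = 4.8e-11). Postn, made by activated fibroblasts, was at 154, 159 and 159 TPM in Ad-JP2 and 23.4, 19.9 and 22.2 TPM in Ad-shJP2 (2.80). Ad-GFP lay between the groups for both, with Postn at 88.6, 89.5 and 89.1 TPM. Thbs1, which activates latent TGF-beta and restrains vessels, was at 2415, 2362 and 2209 TPM in Ad-JP2 and 806, 799.7 and 802 TPM in Ad-shJP2 (1.53), and Ad-GFP stood near Ad-JP2 at 2115, 2098 and 2086 TPM. Tnc, made in wounds, was lower at 561, 560.5 and 524 TPM in Ad-JP2 and 725, 714 and 719.8 TPM in Ad-shJP2 (-0.39), and Smoc2 was lower (-0.27).

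Metalloproteases and their inhibitors had the highest median of the matrix lists, 0.82, with 18 of 23 higher, 3 lower and 9 at least 2-fold higher. Adamts5 was at 74.1, 72.8 and 69 TPM in Ad-JP2 and 6.98, 6.94 and 6.53 TPM in Ad-shJP2 (3.22). The sheddase Adam10 was at 37.7, 37.2 and 38.1 TPM in Ad-JP2 and 3.95, 4.86 and 4.09 TPM in Ad-shJP2 (2.87), and the matrix-bound inhibitor Timp3 at 326.6, 328 and 329 TPM in Ad-JP2 and 46.5, 46.5 and 43.7 TPM in Ad-shJP2 (2.82). None of the 3 had overlapping groups, and Ad-GFP was between them in each. Lower members were the stromelysins Mmp10 (-1.07) and Mmp3 (-0.56) and the inhibitor Timp1 (-0.23), the last turning to 0.28 after correction. The corrected count was 19 higher and 3 lower, with 8 at least 2-fold higher, and the median was 0.59. Integrin and focal adhesion genes were higher for 17 of 23 and lower for 2. The shared beta subunit Itgb1 was at 961, 965 and 932 TPM in Ad-JP2 and 311.5, 306 and 312 TPM in Ad-shJP2 (1.62). The fibronectin receptor subunit Itga5 was lower (-0.98). After correction 12 were higher and 2 lower, against 49.3% and 18.2% of all genes, with a median of 0.24 against 0.23.

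Contractile genes divided almost evenly, 10 higher and 11 lower of 23, with a median of -0.03. Acta2, the smooth muscle actin used to mark myofibroblasts, was at 9912, 9994 and 9844 TPM in Ad-JP2 and 12529, 12232 and 12582 TPM in Ad-shJP2 (log2 difference -0.33, SE 0.02, limma adjusted p = 1.5e-07). The Ad-GFP libraries, at 10102, 10155 and 10026 TPM, were level with Ad-JP2, and the hairpin libraries were above both. Tagln was at 4454, 4663 and 4672 TPM in Ad-JP2 and 5456, 5372 and 5423 TPM in Ad-shJP2 (-0.24) and the calponin gene Cnn1 at 96.5, 93.2 and 96.8 TPM in Ad-JP2 and 202, 206 and 206 TPM in Ad-shJP2 (-1.09). In contrast, the actin-binding caldesmon gene Cald1 was at 502, 502.5 and 472 TPM in Ad-JP2 and 52.6, 53.8 and 59.7 TPM in Ad-shJP2 (3.13, SE 0.05, limma adjusted p = 2.1e-10), 8.89-fold higher with no overlap. Actn1, which bundles actin, was higher at 979, 975 and 927 TPM in Ad-JP2 and 423, 430.5 and 423 TPM in Ad-shJP2 (1.17), as was the nonmuscle myosin gene Myh10 (1.36), while the smoothelin gene Smtn was lower (-0.78). Quantile normalization put Acta2, the gene with the highest mean TPM of all tested, at 0.00. That method gives genes of the same rank the same value, so this 0.00 cannot speak to the stability of Acta2. After GC and length correction Acta2 was at -0.10 and Tagln turned to 0.17, both below the middle gene at 0.23. Cnn1 stayed lower (-0.75) and Cald1 higher (2.70), and the corrected list had 15 higher and 6 lower.

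TGF-beta signalling, the main inducer of matrix genes in fibroblasts, was higher for 16 of 23 genes and lower for 4, with 6 at least 2-fold higher. Its ligands moved apart. Tgfb2 was at 28, 27.7 and 30.1 TPM in Ad-JP2 and 5.43, 6.41 and 5.56 TPM in Ad-shJP2 (log2 difference 2.12, SE 0.07, limma adjusted p = 1.6e-08), whereas Tgfb1 was at 67.4, 67.7 and 66.7 TPM in Ad-JP2 and 108, 106 and 105 TPM in Ad-shJP2 (-0.65, SE 0.03, limma adjusted p = 1.1e-07). For Tgfb1 the Ad-GFP libraries, at 69.4, 71.5 and 67.4 TPM, were level with Ad-JP2, and for Tgfb2 they lay between the groups at 17.5, 16.3 and 18.5 TPM. The type I receptor Tgfbr1 was at 6.71, 8.13 and 7 TPM in Ad-JP2 and 0.241, 0.468 and 0.353 TPM in Ad-shJP2 (2.61). Skil, a repressor that SMAD signalling induces, was higher (1.81), and the corepressor Tgif1 was lower (-0.44). In the BMP branch 12 of 16 were higher and 3 lower. Bmp4 was at 26.5, 34.9 and 28.9 TPM in Ad-JP2 and 7.84, 5.93 and 6.36 TPM in Ad-shJP2 (2.01) and the inhibitor Smad6 at 83, 80.7 and 72 TPM in Ad-JP2 and 30.2, 29.7 and 30.2 TPM in Ad-shJP2 (1.36). Both groups were separate for these genes, with Ad-GFP near Ad-JP2. The decoy receptor Bambi (-0.64) was lower, and the target Id3 was higher (0.39).

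Genes of YAP and TEAD, which read cell stretch, were higher for 14 of 20 and lower for 2, with 8 at least 2-fold higher and a median of 0.69. Ankrd1, a target, was at 832.4, 831 and 861 TPM in Ad-JP2 and 181, 187 and 181 TPM in Ad-shJP2 (2.20, SE 0.03, limma adjusted p = 5.8e-11). Tead1, the DNA-binding partner, was at 63.4, 62.9 and 55.1 TPM in Ad-JP2 and 14, 11.9 and 12.3 TPM in Ad-shJP2 (2.16), and Mob1a, a cofactor of the kinases that hold YAP in the cytosol, was higher (2.20). Ankrd1 in Ad-GFP, at 675, 705.5 and 681 TPM, was nearer to Ad-JP2 than to the hairpin virus. Another TEAD gene, Tead4, was lower (-0.52) but not called after correction (-0.23). After correction 16 were higher and 1 lower, with 5 at least 2-fold higher.

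Genes that identify cardiac fibroblasts were higher for 14 of 19 and lower for 2, with 8 at least 2-fold higher. Tcf21, the transcription factor of the resident lineage, was at 104, 108 and 102 TPM in Ad-JP2 and 43.3, 45.8 and 38.4 TPM in Ad-shJP2 (log2 difference 1.29, SE 0.06, limma adjusted p = 1.2e-07). Its Ad-GFP libraries, at 114, 116 and 109 TPM, were all above Ad-JP2. Pdgfra, the receptor used to sort these cells, was at 67.1, 69.4 and 67.3 TPM in Ad-JP2 and 31.3, 31.6 and 29.2 TPM in Ad-shJP2 (1.12). Tbx20 (1.92), Gata6 (1.43) and the noncoding Meg3 (1.67) were higher, and the surface markers Ly6a (-0.42) and Thy1 (-0.34, 0.16 after correction) were lower. The summed TPM of the list ran from 18832 to 18950.4 in Ad-JP2 and from 15529 to 15861 in Ad-shJP2. Most of that sum came from S100a4, with overlapping groups (-0.02, and 0.29 after correction), and Vim (0.54), which other cells such as leukocytes also express, so the sum does not identify fibroblasts. The more restricted Tcf21 and Pdgfra were present in all 6 libraries.

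Angiogenic ligands and receptors were higher for 13 of 17 and lower for 3, against 40.9% and 24.6% of all genes. After correction 10 were higher and 2 lower, and their median of 0.23 was that of all genes. Vegfa was at 101, 98.5 and 100.2 TPM in Ad-JP2 and 39, 40.9 and 40.7 TPM in Ad-shJP2 (log2 difference 1.29, SE 0.03, limma adjusted p = 2.5e-09), and the lymphatic ligand Vegfd at 59.2, 65.8 and 59.8 TPM in Ad-JP2 and 34.5, 32.4 and 32.1 TPM in Ad-shJP2 (0.88). Groups did not overlap for either, and Ad-GFP lay between them for Vegfa, at 76.7, 77.6 and 74.4 TPM, and beside Ad-JP2 for Vegfd, at 58.4, 58.5 and 59.8 TPM. Pgf, a ligand of the receptor Flt1, was lower at 2.09, 2.49 and 2.12 TPM in Ad-JP2 and 6, 5.01 and 5.71 TPM in Ad-shJP2 (-1.02). Vegfb was at -0.26, turning to 0.25 after correction. Angptl4 was lower (-0.69), and the coreceptor Nrp1 was higher (0.99) but not after correction (0.22, adjusted p = 0.073). Of 22 growth factors and receptors 17 were higher and 2 lower, with 7 at least 2-fold higher. Ereg, an EGF receptor ligand, was at 26.4, 30.9 and 30.1 TPM in Ad-JP2 and 3.74, 3.65 and 3.03 TPM in Ad-shJP2 (2.75). Pdgfd (1.86) and Fgf7 (1.49) were higher, and the stress hormone Gdf15 (-0.95) and Hbegf (-0.65) were lower. WNT modulators and targets were higher for 14 of 17 and lower for 2, led by Sox4 at 34.5, 34.2 and 30.1 TPM in Ad-JP2 and 3.31, 3.47 and 3.24 TPM in Ad-shJP2 (2.97) and Sox9 at 36.9, 36.3 and 34.8 TPM in Ad-JP2 and 3.73, 4.04 and 3.64 TPM in Ad-shJP2 (2.95). Every hairpin library was far below every Ad-JP2 library for both SOX genes, while Ctnnb1, the most abundant member, was at -0.19 (-0.05 and not called after correction).

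**Figure D4:**
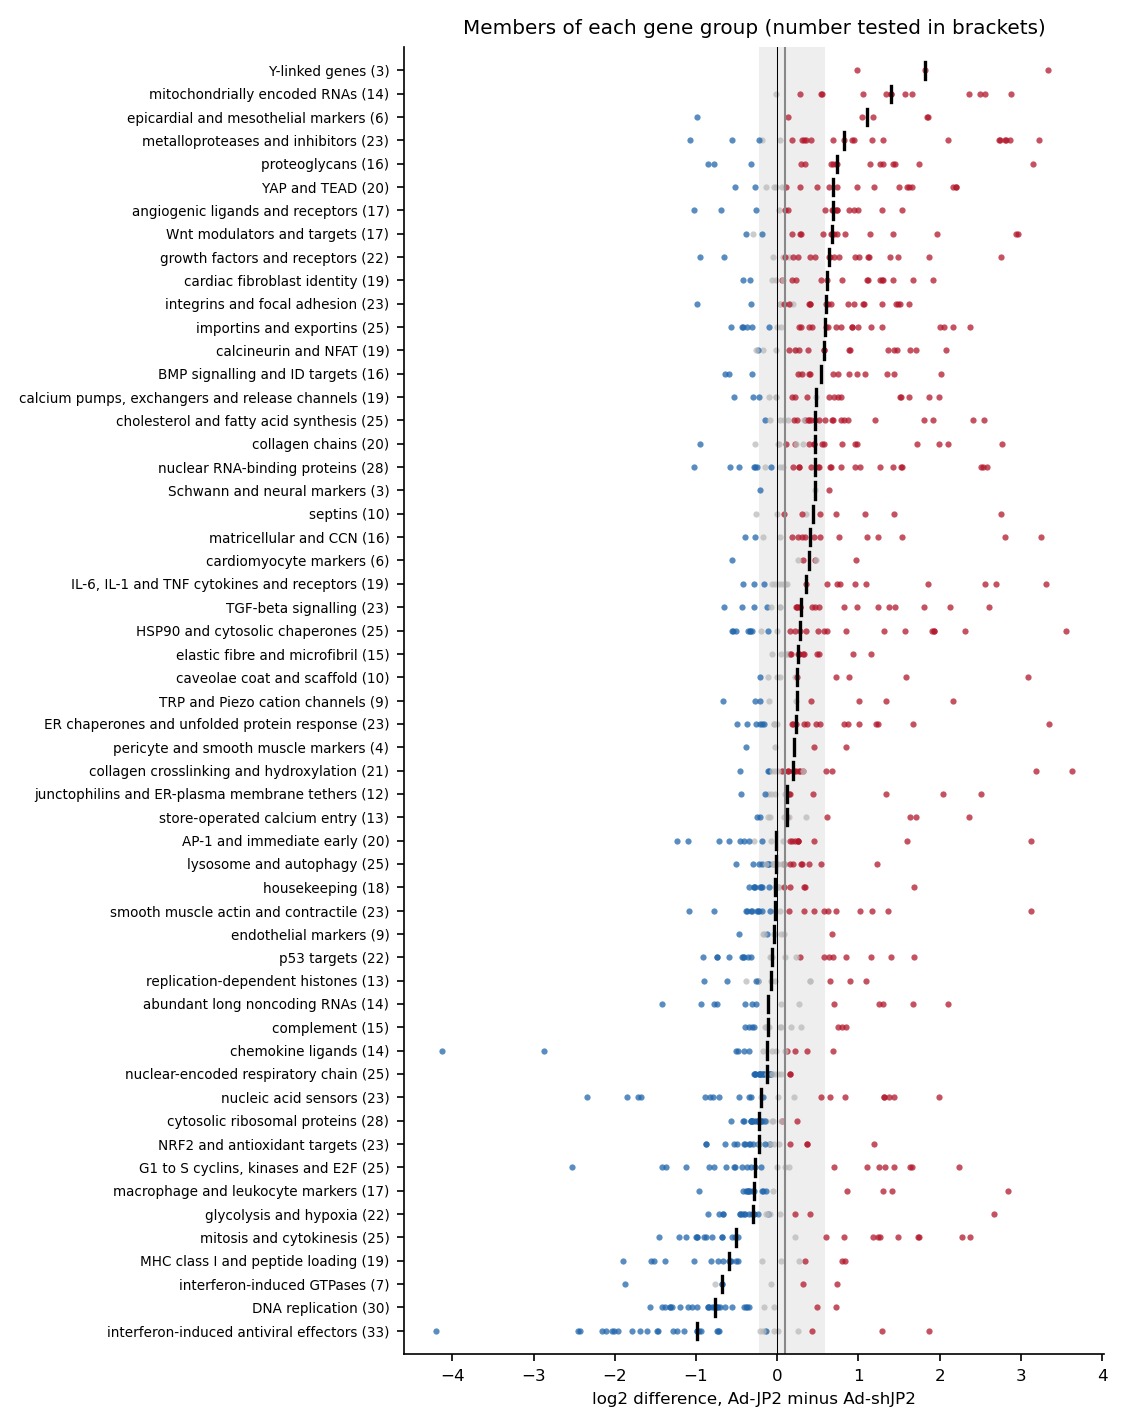
Log2 difference (horizontal axis) of each tested member (points; red called higher, blue called lower, grey not called) of the gene lists (rows), with a black bar at each list's median; the grey line is the median of all genes tested and the grey band runs from the 25th to the 75th percentile, -0.21 to 0.57. Interferon-induced antiviral effectors and DNA replication lie left of the band by their medians of -0.99 and -0.77, and mitochondrially encoded RNAs and metalloproteases lie right of it at 1.40 and 0.82.

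Antiviral effectors had the lowest median of the gene lists, although a larger share of DNA replication genes was called lower. Cells sense foreign RNA or DNA, make interferon, and then switch on effector genes through a short promoter element, the interferon-stimulated response element, which STAT and IRF factors bind. Of 33 interferon-induced antiviral effectors 24 were lower and 3 higher, against 24.6% and 40.9% of all genes, and 16 were at least 2-fold lower, against 1.54%. The median was -0.99. After GC and length correction 27 were lower and 5 higher with a median of -1.10, and with median-of-ratios and quantile scaling the medians were -1.12 and -1.36. This list had been seen to move in these libraries before, so its direction is not independent evidence.

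The promoters of 3 of these effectors and of the interferon-induced chemokine gene Cxcl10 are shown because they carry the element: Cxcl10 and Isg15 were much lower, and the related genes Ifit3 and Ifit1 carry it alike but differed in response. Each line holds the 250 bases before the RefSeq start on GRCm38.p6, read along the gene, with matches to the core in capitals (GAAA, any 2 bases, GAAA, which on the opposite strand reads TTTC, any 2 bases, TTTC). The windows are Cxcl10 at chr5:92348890-92349139 (minus strand), Isg15 at chr4:156200819-156201068 (minus strand), Ifit3 at chr19:34583279-34583528 and Ifit1 at chr19:34640639-34640888 (both plus strand).
Cxcl10: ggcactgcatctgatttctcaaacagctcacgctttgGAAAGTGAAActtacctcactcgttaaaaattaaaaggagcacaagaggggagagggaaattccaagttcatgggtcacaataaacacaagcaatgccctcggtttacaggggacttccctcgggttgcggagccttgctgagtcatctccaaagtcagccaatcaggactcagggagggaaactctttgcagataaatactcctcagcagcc
Isg15: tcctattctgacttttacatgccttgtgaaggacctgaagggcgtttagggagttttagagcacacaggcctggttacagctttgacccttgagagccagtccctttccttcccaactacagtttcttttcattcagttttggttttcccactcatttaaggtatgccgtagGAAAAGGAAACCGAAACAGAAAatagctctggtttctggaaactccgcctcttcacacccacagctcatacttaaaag
Ifit3: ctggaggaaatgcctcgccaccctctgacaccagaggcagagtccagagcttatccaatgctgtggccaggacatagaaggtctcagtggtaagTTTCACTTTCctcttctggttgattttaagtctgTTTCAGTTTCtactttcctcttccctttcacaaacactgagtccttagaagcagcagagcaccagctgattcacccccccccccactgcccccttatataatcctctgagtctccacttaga
Ifit1: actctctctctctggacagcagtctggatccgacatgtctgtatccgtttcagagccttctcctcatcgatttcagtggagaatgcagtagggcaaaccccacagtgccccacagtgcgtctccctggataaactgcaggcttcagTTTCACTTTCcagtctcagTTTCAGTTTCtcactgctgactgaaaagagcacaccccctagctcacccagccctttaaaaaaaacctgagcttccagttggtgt

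Cxcl10 had 1 match, which began 213 bases before its start. Isg15 had 3 matches that overlap each other, beginning 78, 72 and 66 bases before. Ifit3 and Ifit1 each had 2 on the opposite strand, at 156 and 122 bases and at 104 and 85 bases. Of the 33 effectors 23 had a window in the RefSeq table, and 10 of these (43.5%) held the core on either strand. Among all tested genes with a window it was 298 of 9321 (3.2%), counting a gene when any of its windows matched. Counted by window, it was 978 of the 32851 windows of all genes (2.98%). By result, 8 of 17 lower effectors, 2 of 5 that were not called and 0 of 1 higher effector held it. Oasl1 had a window without a match. A match describes the letters and is not evidence that a factor was bound.

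Isg15, a ubiquitin-like protein, was at 61.5, 62.5 and 59.98 TPM in Ad-JP2 and 324.5, 351 and 332 TPM in Ad-shJP2 (log2 difference -2.43, SE 0.04, limma adjusted p = 3.5e-10). Its Ad-GFP libraries, at 37.3, 34.9 and 34.6 TPM, were lower still, so Ad-JP2 stood between the GFP virus and the hairpin virus but near the former. Ifit3, which binds viral RNA in a complex with Ifit1, was at 32.4, 30.5 and 36.5 TPM in Ad-JP2 and 139, 131 and 138 TPM in Ad-shJP2 (-2.01). Ifit1 was at 2.1, 1.56 and 1.7 TPM in Ad-JP2 and 1.11, 1.3 and 1.6 TPM in Ad-shJP2 (0.25, adjusted p = 0.082; 0.33 and called without Ad-shJP2 replicate 3), with overlapping groups, and both were above its Ad-GFP libraries, at 0.54, 0.384 and 0.427 TPM. Ifit2, another family member, went the opposite way at 5.91, 5.97 and 6.73 TPM in Ad-JP2 and 0.858, 1.44 and 0.71 TPM in Ad-shJP2 (1.86). Parp14 was higher (0.43) but lower after correction (-0.37). Usp18, which removes Isg15 from proteins and dampens the receptor, was at 9.65, 10.7 and 9.95 TPM in Ad-JP2 and 58.7, 58.1 and 62 TPM in Ad-shJP2 (-2.45). Ifitm3, which blocks viral entry and is the most abundant member, was at 1005, 992 and 1016 TPM in Ad-JP2 and 1666, 1659.7 and 1668 TPM in Ad-shJP2 (-0.73).

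**Figure D5:**
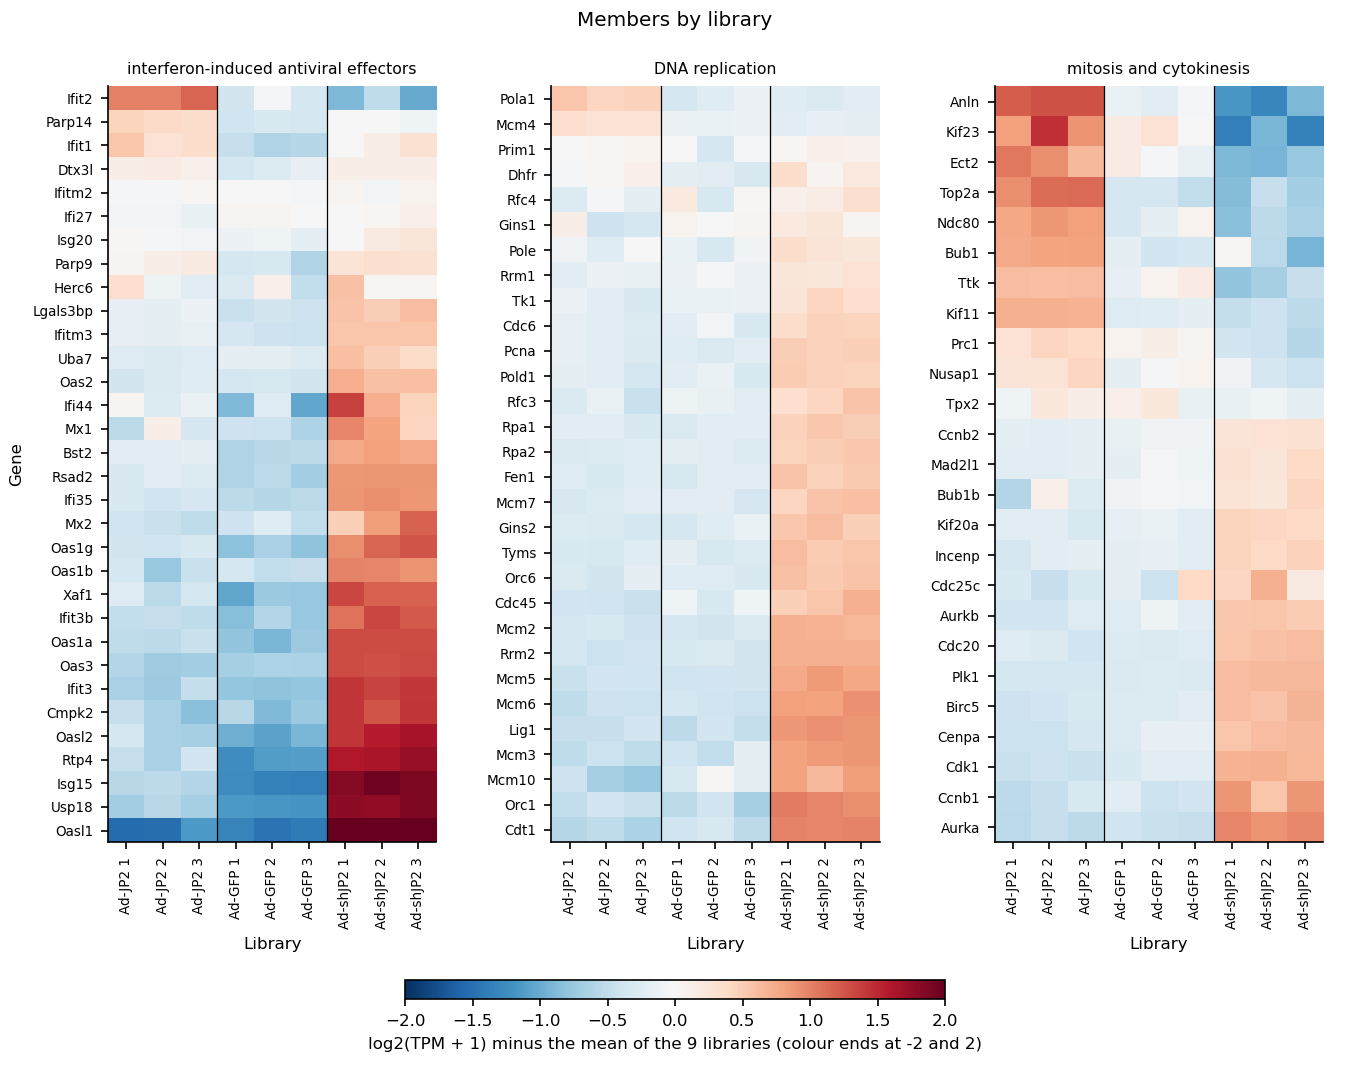
Each row is a tested gene (1 tested member of the antiviral list is not drawn) and each column a library; colour gives log2(TPM + 1) minus the gene's mean over the 9 libraries, from -2 (blue) to 2 (red), for 3 gene lists ordered by difference. Most antiviral effectors and replication genes are red in the 3 Ad-shJP2 libraries and blue in Ad-JP2 and Ad-GFP, whereas mitosis genes fall into opposite blocks headed by Anln and by Aurka.

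Upstream of the effectors the sensors were mixed, with 8 of 23 higher and 12 lower. Irf7, the factor that amplifies interferon production, was at 12.5, 13.9 and 11.4 TPM in Ad-JP2 and 68.3, 68.3 and 66.3 TPM in Ad-shJP2 (log2 difference -2.34, SE 0.07, limma adjusted p = 8.0e-09). The DNA sensor Zbp1 was at 11.8, 13.3 and 11.7 TPM in Ad-JP2 and 42.1, 41.9 and 43.8 TPM in Ad-shJP2 (-1.72), and Dhx58, a relative of the RNA sensors, was lower (-1.85). In contrast, the kinase Tbk1, which activates IRF factors, was at 11.7, 11.7 and 10.5 TPM in Ad-JP2 and 2.29, 2 and 1.99 TPM in Ad-shJP2 (1.99), and the RNA sensor Ifih1 was at 3.14, 3.77 and 3.48 TPM in Ad-JP2 and 2.02, 2.08 and 2.11 TPM in Ad-shJP2 (0.54), a call lost after correction (0.04). The DNA sensors Ifi205 (1.44) and Aim2 (1.38) were higher, and the adaptor Sting1, the most abundant member, was at -0.47 (-0.12 and not called after correction). Of 7 interferon-induced GTPases 3 were lower, led by Igtp (-1.87), and 2 higher, led by Gbp3 (0.73).

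Genes that present peptides on MHC class I were lower for 13 of 19 and higher for 3, with 5 at least 2-fold lower. H2-Q6 was at 0.202, 0.221 and 0.263 TPM in Ad-JP2 and 3.76, 3.69 and 3.3 TPM in Ad-shJP2 (-1.90), and H2-Q4 (-1.56) and H2-Q7 (-1.51) followed, although reads of these near-identical genes can be shared. The common light chain B2m went the other way, at 1631, 1644.5 and 1663 TPM in Ad-JP2 and 1323, 1265.5 and 1316 TPM in Ad-shJP2 (0.34), a difference of 0.02 after correction. The trimming peptidase Erap1 was higher (0.84), and not called after correction (0.38). The corrected count was 10 lower and 3 higher, with a median of -0.12.

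Chemokines and cytokines did not share a direction. Of 14 chemokine ligands 6 were lower and 4 higher. Ccl5 was at 2.76, 3.4 and 4.33 TPM in Ad-JP2 and 31.2, 33.1 and 30.2 TPM in Ad-shJP2 (-2.87), with Ad-GFP level with Ad-JP2 at 2.97, 2.56 and 3.13 TPM. The neutrophil chemokine Cxcl5 was higher at 42, 46.3 and 41.3 TPM in Ad-JP2 and 27.5, 25.3 and 26.8 TPM in Ad-shJP2 (0.68), and the most abundant, Ccl2, at 0.12, turned to -0.01 with median-of-ratios scaling (adjusted p = 0.79). Of 19 genes of the IL-6, IL-1 and TNF families 10 were higher and 3 lower, with 5 at least 2-fold higher. Il6 was at 49.8, 53.6 and 57.6 TPM in Ad-JP2 and 6.87, 7.67 and 7.82 TPM in Ad-shJP2 (log2 difference 2.69, SE 0.09, limma adjusted p = 1.1e-08). Its Ad-GFP libraries, at 35.1, 42.8 and 35.8 TPM, were closer to Ad-JP2. The oncostatin M receptor Osmr was at 29.99, 29.3 and 29.3 TPM in Ad-JP2 and 4.29, 4.19 and 4.01 TPM in Ad-shJP2 (2.56) and Il1rap at 43.8, 43.9 and 45.2 TPM in Ad-JP2 and 3.41, 3.27 and 4.11 TPM in Ad-shJP2 (3.31). The antagonist Il1rn (-0.42) and the receptor Tnfrsf1b (-0.17) were lower, and Csf1, the most abundant, differed by 0.35 (adjusted p = 8.5e-06).

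Leukocyte messages were present in every library and moved beside these groups. Of 17 macrophage and leukocyte markers tested 12 were lower and 4 higher. Their summed TPM was 3546 to 3603 in Ad-JP2, 3817 to 3870.4 in Ad-GFP and 4416 to 4491 in Ad-shJP2. The lysozyme gene Lyz2, the most abundant, was at 1541.5, 1563 and 1565 TPM in Ad-JP2 and 2027, 1994 and 2048 TPM in Ad-shJP2 (-0.38), and Fcgr1, an interferon-inducible receptor, was lower (-0.97). The mannose receptor Mrc1 went the opposite way, at 19.8, 21.1 and 19.98 TPM in Ad-JP2 and 1.86, 2.02 and 2.03 TPM in Ad-shJP2 (2.84), as did Cx3cr1 (1.42) and Ptprc (1.31). After correction 11 markers were higher and 3 lower, so the direction of the small differences changed with the processing. Their corrected median was 0.17, against 0.23 for all genes. In bulk RNA, fewer cells of a type and less RNA per cell cannot be told apart, and the part of these cells in the antiviral and chemokine results was not tested.

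Genes of DNA replication were lower for 26 of 30 and higher for 2, against 24.6% and 40.9% of all genes, and 9 were at least 2-fold lower, against 1.54%. The median was -0.77. They are switched on by E2F factors when cells leave G1, and the helicase subunits Mcm2 to Mcm7 open the DNA at origins. Promoters of Mcm6 and Mcm5 are shown because they carry clear matches to the E2F site, as the 250 bases before the RefSeq start on GRCm38.p6. Capitals mark TTTNNCGC on either strand, and matches on both strands can overlap. The windows are Mcm6 at chr1:128359706-128359955 (minus strand) and Mcm5 at chr8:75109259-75109508 (plus strand).
Mcm6: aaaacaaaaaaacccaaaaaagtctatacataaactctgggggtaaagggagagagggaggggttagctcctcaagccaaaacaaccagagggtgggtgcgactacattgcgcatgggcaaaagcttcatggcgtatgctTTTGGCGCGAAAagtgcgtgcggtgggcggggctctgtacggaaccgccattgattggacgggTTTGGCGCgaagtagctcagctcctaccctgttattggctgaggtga
Mcm5: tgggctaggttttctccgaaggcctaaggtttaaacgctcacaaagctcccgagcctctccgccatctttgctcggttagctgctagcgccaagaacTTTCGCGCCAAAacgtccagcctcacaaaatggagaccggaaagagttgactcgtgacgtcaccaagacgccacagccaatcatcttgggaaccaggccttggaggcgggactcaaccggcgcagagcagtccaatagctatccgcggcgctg

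Matches began 110, 106 and 47 bases before the start in Mcm6 and 153 and 149 bases before in Mcm5. Of 25 replication genes with a window 7 (28%) held the site, against 785 of 9321 tested genes with a window (8.42%). Counted by window, it was 1406 of the 32851 windows of all genes (4.28%). By result, 6 of 23 lower members (26.1%), 1 of 1 higher member and 0 of 1 that was not called held it. Mcm6 was at 28.1, 29.9 and 29.5 TPM in Ad-JP2 and 72.1, 71.1 and 76.6 TPM in Ad-shJP2 (log2 difference -1.30, SE 0.04, limma adjusted p = 1.4e-08), and Mcm5 at 27.2, 28.3 and 28 TPM in Ad-JP2 and 63.5, 67.7 and 64.2 TPM in Ad-shJP2 (-1.20). All 3 hairpin libraries were above every Ad-JP2 library for both, and Ad-GFP was level with Ad-JP2, with Mcm6 at 31.3, 30.2 and 29.6 TPM. The licensing factor Cdt1 was at 9.74, 10.2 and 9.28 TPM in Ad-JP2 and 30.9, 30.5 and 30.9 TPM in Ad-shJP2 (-1.56), and the origin factors Orc1 (-1.41) and Mcm10 (-1.38) were also lower. Rrm1, which makes deoxynucleotides and is the most abundant member, was at 146, 157 and 153 TPM in Ad-JP2 and 200.2, 199 and 208 TPM in Ad-shJP2 (-0.41). The higher members were Mcm4 (0.49) and Pola1 (0.72), and neither was called after correction (0.00 and -0.14). The corrected list had 26 lower and none higher, with a median of -0.76, and the medians with median-of-ratios and quantile scaling were -0.89 and -0.96.

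Upstream, 14 of 25 genes of the G1 to S step were lower and 8 higher (12 and 11 after correction). Ccne1, given above, and its kinase partner Cdk2, at 14.8, 14.8 and 14.1 TPM in Ad-JP2 and 41.8, 40.3 and 39.5 TPM in Ad-shJP2 (-1.42), were lower, as was the inhibitor Cdkn1c (-1.37). Against them, the D-type cyclin Ccnd2 was at 330.5, 326 and 305 TPM in Ad-JP2 and 63.1, 70.4 and 67.8 TPM in Ad-shJP2 (log2 difference 2.24, SE 0.05, limma adjusted p = 1.1e-09), and the brake on E2F, Rb1, was at 3.11, 2.78 and 3.11 TPM in Ad-JP2 and 0.128, 0.286 and 0.387 TPM in Ad-shJP2 (1.66). Ad-GFP was between the groups for Ccnd2, at 199, 196 and 188 TPM. The Rb relative Rbl2 was higher (1.64).

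Genes of mitosis split into blocks of opposite direction, 14 lower and 10 higher of 25. At least 2-fold higher were 8 and at least 2-fold lower 4, against 14.2% and 1.54% of all genes. After correction these 2-fold counts were 3 and 2. Cdk1, the kinase of mitotic entry, was at 98.6, 100.5 and 98.1 TPM in Ad-JP2 and 218, 220.1 and 214 TPM in Ad-shJP2 (log2 difference -1.12, SE 0.03, limma adjusted p = 3.5e-09). Aurka, a kinase of the spindle poles, was at 28.5, 30.3 and 29.1 TPM in Ad-JP2 and 83.3, 79.6 and 82.6 TPM in Ad-shJP2 (-1.45), and Ccnb1, the cyclin of Cdk1, was lower (-1.21). For all 3 the Ad-GFP libraries lay near Ad-JP2. The cytokinesis genes Anln, at 28.1, 29.2 and 29.2 TPM in Ad-JP2 and 4.58, 4.1 and 5.71 TPM in Ad-shJP2 (2.37), and Kif23, at 14.8, 23.5 and 15.6 TPM in Ad-JP2 and 2.46, 3.73 and 2.49 TPM in Ad-shJP2 (2.27), were higher, and so were Ect2 (1.74) and the DNA untangling enzyme Top2a (1.73). For Anln, Kif23 and Ect2 the Ad-GFP libraries lay between the groups, with Anln at 10.4, 9.67 and 11.3 TPM, while for Top2a they were close to the hairpin virus at 4.52, 4.52 and 3.94 TPM. After correction 14 were lower and 8 higher, with Anln at 1.74 and Top2a at 0.95. Among 22 p53 targets 9 were lower and 8 higher (6 and 8 after correction): Trp53 itself was at 108, 107.5 and 108 TPM in Ad-JP2 and 183, 176 and 185 TPM in Ad-shJP2 (-0.74), Sesn2 was lower (-0.92), and Ccng1 was higher at 206, 207 and 207 TPM in Ad-JP2 and 62, 61.8 and 67.8 TPM in Ad-shJP2 (1.68). Cdkn1a, which stops the cycle and was the most abundant, was lower (-0.32) and turned to 0.10 after correction.

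Metabolic groups were shifted by small amounts, around a few large rises. Of 22 genes of glycolysis and hypoxia 15 were lower and 3 higher, with a median of -0.30. Hif1a, the oxygen-sensitive transcription factor, was at 32.4, 34.5 and 32.1 TPM in Ad-JP2 and 4.16, 3.62 and 5.45 TPM in Ad-shJP2 (log2 difference 2.67, SE 0.11, limma adjusted p = 5.3e-08), several times higher in each Ad-JP2 library. Other members stood lower: the lactate exporter Slc16a3 was at 61.9, 60.6 and 61.7 TPM in Ad-JP2 and 105, 111 and 119 TPM in Ad-shJP2 (-0.85), and the hydroxylase Egln3 was lower (-0.72). Aldoa, the most abundant member, was lower (-0.29, and 0.20 after correction), and the corrected list had 10 lower and 7 higher. Cholesterol and fatty acid synthesis was higher for 19 of 25 and lower for 1, with 5 at least 2-fold higher. Hmgcs1, an early enzyme of the pathway, was at 17.2, 15.9 and 16.8 TPM in Ad-JP2 and 2.18, 1.77 and 2.1 TPM in Ad-shJP2 (2.55), and Hsd17b7 (2.41) and the desaturase Scd2 (1.92) were higher. Fasn, which builds palmitate, was lower (-0.16). The corrected count was 19 higher and 3 lower.

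Stress pathways showed a similar mix. The antioxidant factor Nfe2l2 was at 67.1, 69.5 and 70.9 TPM in Ad-JP2 and 31.5, 28 and 29.8 TPM in Ad-shJP2 (1.19), while of 23 genes in its list 14 were lower and 4 higher. Hmox1, which breaks down heme, was at 364, 365 and 372 TPM in Ad-JP2 and 678, 665 and 684 TPM in Ad-shJP2 (log2 difference -0.88, SE 0.02, limma adjusted p = 1.6e-09), and Nqo1 (-0.64) and Gsr (-0.88) were lower too. After correction 9 were lower and 8 higher, and these 3 stayed lower. Chaperones and unfolded protein response genes of the endoplasmic reticulum were higher for 14 of 23 and lower for 6. The master chaperone Hspa5 was at 535, 548 and 559 TPM in Ad-JP2 and 179.8, 164 and 168 TPM in Ad-shJP2 (1.68) beside Hsp90b1, whereas the transcription factors Atf4 (-0.50, and -0.06 with no call after correction) and Ddit3 (-0.37) were lower. Among 25 cytosolic chaperones 15 were higher and 8 lower. Hspa4, a nucleotide exchange factor, was at 147, 148 and 147 TPM in Ad-JP2 and 28.6, 28.2 and 30.2 TPM in Ad-shJP2 (2.31). The constitutive Hsp90ab1 was at 1245.5, 1264.5 and 1244 TPM in Ad-JP2 and 1271, 1238 and 1246 TPM in Ad-shJP2 (-0.00, adjusted p = 0.99), with overlapping groups, in contrast to its inducible relative Hsp90aa1. After correction Hsp90ab1 was at 0.21, and with median-of-ratios scaling at -0.13. The HSP90 cochaperones Ahsa1 (-0.56) and Stip1 (-0.55) were lower.

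RNAs encoded in the mitochondrial genome were higher for 13 of 14 tested and lower for none, with 10 at least 2-fold higher and a median of 1.40. The respiratory complex I subunit mt-Nd5 was at 247, 254 and 246 TPM in Ad-JP2 and 36.1, 28.6 and 34.9 TPM in Ad-shJP2 (log2 difference 2.88, SE 0.07, limma adjusted p = 2.8e-09), and mt-Nd4 at 1195.5, 1218 and 1318 TPM in Ad-JP2 and 219, 204.5 and 236 TPM in Ad-shJP2 (2.50). Ad-GFP lay between the groups for both. The most abundant, mt-Co1, moved less, at 7367, 7415 and 8045 TPM in Ad-JP2 and 5376, 5053 and 5295 TPM in Ad-shJP2 (0.54). These RNAs are poor in GC, with a median of 36.5%, and after correction 11 were higher, 1 lower and 6 at least 2-fold higher, with mt-Co1 at 0.08 and mt-Nd5 at 2.26. Their partners encoded in the nucleus did not rise with them. Of 25 respiratory chain genes of the nucleus 17 were lower and 2 higher, with a median of -0.13. Ribosomal protein genes were lower for 21 of 28 and higher for 2, with a median of -0.22 and differences between -0.58 and 0.25. Both nuclear lists turned over after correction, to 15 higher and 5 lower and to 16 higher and 7 lower, so the sign of their small differences was not stable. The corrected medians were 0.17 for the respiratory chain and 0.23 for ribosomal proteins, against 0.23 for all genes, so neither list stood above the middle gene.

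Markers of other cell types were low or mixed. Of 14 cardiomyocyte genes 6 were tested, and 3 of these were higher, Actc1 (0.96), Nppa (0.47) and Tnnt2 (0.31), and 1 lower, Nppb (-0.55). The calls of Nppa and Tnnt2 were lost with quantile normalization, and that of Nppb after correction. The summed TPM of that list was 42.9 to 49.1 in Ad-JP2 and 33.9 to 36.1 in Ad-shJP2. Its myosin heavy chain gene Myh6, at 0.267 to 0.362 TPM in Ad-JP2 and 0.125 to 0.527 TPM in Ad-shJP2, did not reach the level for testing, and Ttn was listed at 0 in all 6 libraries. Endothelial markers had 1 of 9 higher and 2 lower, with a summed TPM of 330 to 348 in Ad-JP2 and 354 to 377 in Ad-shJP2. Most of that sum came from Eng, at 291.6, 292.1 and 275 TPM in Ad-JP2 and 306, 313.8 and 319.6 TPM in Ad-shJP2 (-0.13). Kdr, at 0.056 to 0.149 TPM in Ad-JP2 and 0.12 to 0.369 TPM in Ad-shJP2, did not reach the level for testing. Erythroid markers were listed at 0 in all 6 libraries. Epicardial and mesothelial markers were higher for 5 of 6 and lower for 1, with Tbx18 at 14.6, 14 and 15.1 TPM in Ad-JP2 and 3.11, 3.79 and 3.02 TPM in Ad-shJP2 (1.86) and Krt19 lower (-0.99). The summed TPM of that list was 97.5 to 104 in Ad-JP2 and 79.4 to 81.7 in Ad-shJP2. Their part in the fibroblast and matrix results was not tested.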

How the data were processed

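The data were deposited by the authors as TPM (scaled for gene length and library total, per the file headers), 1 column per library. DRAGEN, DESeq2 and Salmon appear in the submitters' processing notes with build GRCm39, and what each tool did is not given. Depth is approximate, read from the steps of low TPM values multiplied by a deposited effective length, which matched 1 Ad-GFP library.

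Genes with at least 1 TPM in 3 of the 6 libraries were transformed to log2(TPM + 1). limma 3.58.1 in R 4.3.3 fitted 3 group means to all 9 libraries with a mean-variance trend, so Ad-GFP adds to the spread estimate only. Adjusted p-values (Benjamini-Hochberg, over all 13898 genes) come from limma, two-sided, and under 0.05 is a call. Fold values printed for single genes are ratios of group mean TPM. Counts of genes at 2-fold or another fold size use the log2(TPM + 1) difference, which is smaller than the TPM ratio for low genes. The fit was tested on simulated data with independent noise and few changed genes. That simulation held no GC, length or scaling shift, so it cannot speak to such shifts in the real libraries.

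The members and the 56 gene lists (966 distinct genes tested) were chosen with earlier results of these data known, and lists are described by counts and medians without a test. The text names the 4 junctophilins and the 12 largest changes each way. The latter were taken from called genes with a mean TPM of at least 5 and no overlap, leaving out Gm and Rik gene models and pseudogenes. Also named are up to 3 members per list and direction, the most abundant member, and some genes of prior interest. Ifit3, Mcm5, Mcm6, Ppp3cc, Top2a and Vim were chosen after their values were seen, and Kdr, Myh6 and Ttn were also named outside these rules. Alternatives covered pseudocount, filter, scaling, samples in the fit, replicate block, trend, GC content and length, and each library left out. GC content came from GENCODE M21 transcripts (mgcv 1.9.3 smooths), known for 98.9% of genes, and promoter windows from RefSeq (GRCm38.p6), matched by symbol for 9321 genes. Reads of near-identical genes may be shared between them. Results for some genes are not reported here.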

Additional observations from a re-analysis of the deposited data

How the results depend on the processing

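Directions and calls were recomputed under 17 alternatives that changed 1 choice at a time, or the replicate block and the GC correction together. Of 226 named genes that were called, 193 kept direction and call under all of those in which they were tested, and Jph2 stayed between 2.38 and 2.57. Most of these genes were named for large called changes, so that share does not stand for all calls. With quantile normalization 5571 genes were lower, with 1301 rises and 555 falls of 2-fold or more, against 3421, 1976 and 214 in the values as reported. A pseudocount of 5 left 904 rises and 83 falls of 2-fold or more, as its larger constant shrinks the differences of low genes, and 0.1 gave 356 at least 2-fold lower. GC and length correction left 1229 genes at least 2-fold higher (1231 with the replicate block). That correction turned Aldoa to 0.20, C1qa to 0.23, Cdkn1a to 0.098, Hsp90ab1 to 0.205, S100a4 to 0.29, Tagln to 0.17, Thy1 to 0.16, Timp1 to 0.28, Vegfb to 0.25, Ddx3y to -0.20, Parp14 to -0.37, Pola1 to -0.14 and Trpm7 to -0.115, with the same values under the block. Median-of-ratios scaling turned Ccl2 to -0.010, Saraf to -0.010 and Serpinh1 to -0.067. Quantile normalization, which gives genes of the same rank the same value, put Acta2 at 0.000. The middle gene itself moved from 0.10 to 0.23 with the GC and length correction and to -0.015 with median-of-ratios scaling. Values that changed sign are to be read against these middles. The cause of reversals relative to them was not tested. Leaving out each of the 6 libraries gave 5336 to 5538 genes higher, 3179 to 3254 lower, 1958 to 2009 rises and 216 to 230 falls of 2-fold or more, and Jph2 at 2.46 to 2.57. Replicate numbers were not shown to pair the libraries, since deviations from the group means correlated at -0.091, 0.083 and 0.122 for numbers 1, 2 and 3. With the replicate block 5603 genes were higher and 3389 lower, Jph2 was at 2.51, and no named gene changed its call. Depth, known only approximately, limits genes near 1 TPM, for which a difference that was not called is not shown to be absent.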

Other observations

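Gene groups outside calcium, matrix, defence and growth also differed between Ad-JP2 and Ad-shJP2. Nuclear RNA-binding proteins, which splice and package messages, were higher for 18 of 28 and lower for 7, with 8 at least 2-fold higher. After GC and length correction 15 were higher and 8 lower, with a median of 0.22 against 0.23 for all genes. The scaffold protein gene Hnrnpu was at 86.3, 80.7 and 81.8 TPM in Ad-JP2 and 12.1, 14.2 and 12.8 TPM in Ad-shJP2 (log2 difference 2.58, SE 0.06, limma adjusted p = 2.4e-09), and the nucleolar protein gene Ncl at 111, 114 and 121 TPM in Ad-JP2 and 19.9, 19.1 and 19.3 TPM in Ad-shJP2 (2.51). No Ad-JP2 library overlapped a hairpin library for either. Members of the SR family of splicing factors were lower, with Srsf7 at 63.2, 64.3 and 65.9 TPM in Ad-JP2 and 134, 130.5 and 131 TPM in Ad-shJP2 (-1.02) and Srsf2 at -0.59. Importins and exportins, which carry proteins through nuclear pores, were higher for 17 of 25 and lower for 6. Ipo7 was at 21.4, 22 and 23.2 TPM in Ad-JP2 and 3.24, 3.31 and 3.89 TPM in Ad-shJP2 (2.37), and its Ad-GFP libraries, at 5.69, 5.63 and 6.52 TPM, lay near the hairpin virus. Ran, the GTPase that gives transport its direction, was lower at 388, 361 and 342 TPM in Ad-JP2 and 525, 564 and 527.5 TPM in Ad-shJP2 (-0.57). After GC and length correction this group had 9 higher and 12 lower members, while Ipo7 stood at 1.42.

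Immediate early and AP-1 genes were higher for 9 of 20 and lower for 8 (11 and 5 after GC and length correction). The zinc finger factors Klf6, at 59.5, 55.4 and 62.3 TPM in Ad-JP2 and 6.4, 5.3 and 6.05 TPM in Ad-shJP2 (3.12, SE 0.07, limma adjusted p = 1.8e-09), and Klf4 (1.59) were higher, whereas Fosl1, at 37.7, 36 and 35.9 TPM in Ad-JP2 and 88.1, 89.4 and 85.1 TPM in Ad-shJP2 (-1.24), and Atf3 (-1.09) were lower. The KLF and AP-1 members named here had no overlap between the groups. Long noncoding RNAs were mixed, with 5 of 14 higher and 7 lower. Tug1 was at 18.4, 19.5 and 22.1 TPM in Ad-JP2 and 4.03, 3.72 and 3.89 TPM in Ad-shJP2 (2.10) and the snoRNA host Snhg1 at 42.1, 46.1 and 46.5 TPM in Ad-JP2 and 121, 117 and 126 TPM in Ad-shJP2 (-1.41). Of 25 lysosome and autophagy genes 8 were higher, led by the membrane protein gene Lamp2 (1.23), and 7 lower, led by the autophagy receptor Sqstm1 (-0.51). After correction that list had 14 higher and 8 lower. Complement genes had 3 of 15 higher and 4 lower (7 and 3 after correction), with the most abundant, C1qa, at -0.32 (0.23 after correction). Among 13 histone genes tested 3 were higher and 4 lower, turning to 9 and 1 after correction, and among 18 housekeeping genes 5 rose and 8 fell, the middle one being at -0.03, turning to 10 higher and 2 lower after correction.

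All 3 Y-linked genes tested were higher in these male cells. Eif2s3y was at 37.4, 31.9 and 30.9 TPM in Ad-JP2 and 2.26, 1.84 and 3.28 TPM in Ad-shJP2 (3.33, SE 0.22, limma adjusted p = 1.1e-06), Kdm5d at 3.5, 3.75 and 3.16 TPM in Ad-JP2 and 0.167, 0.297 and 0.322 TPM in Ad-shJP2 (1.82) and Ddx3y at 1.93, 2.23 and 2.09 TPM in Ad-JP2 and 0.739, 0.649 and 0.332 TPM in Ad-shJP2 (0.98). Their Ad-GFP libraries lay between the groups for Eif2s3y, at 24.8, 12.9 and 18.6 TPM, and Kdm5d, at 1.56, 1.3 and 1.06 TPM. After correction Ddx3y was no longer called (-0.20, adjusted p = 0.16), and the other 2 stayed higher at 2.79 and 1.27.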
